A study of Mus musculus with 8 samples.

Results

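Gas5 and Snhg1, Snhg3, Snhg4, Snhg5, Snhg6, Snhg7, Snhg8, Snhg12 and Snhg15 are long non-coding RNAs (lncRNAs) whose genes also carry small nucleolar RNAs (snoRNAs). They were picked by gene symbol, case ignored, and all 10 were found among the 27179 genes of the table and were tested with the 12605 genes that had a mean level of at least 0.5 RPKM (reads scaled by the counted transcript length and the library's total). The libraries were made from splenic CD4+ T cells of offspring of the strain C.Cg-Foxp3tm2Tch/J, aged 8 weeks, which were purified by negative selection and sorted by FACS. The strain carries a GFP reporter at Foxp3. The study's figure legends describe the isolated cells as CD25-negative conventional T cells, while the labels say CD4+ T cells. The 4 groups were control offspring at 0 hours (Unstim) and after 16 hours with beads coated with antibodies to CD3 and CD28 (Stim), and the same pair for Cd offspring. Parents of Cd offspring drank water with 10 ppm CdCl2 before and during mating, and the mothers also through pregnancy. Control parents drank unspiked water. Each group had 2 libraries, numbered 6 and 7. The sources used here do not give the sex behind each library or say whether a library is 1 animal or a pool, so p-values measure the spread between these libraries, which may be technical. In bulk RNA, fewer cells of a type and less RNA per cell cannot be told apart.

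In a snoRNA host gene the snoRNA usually lies in an intron. After splicing the intron is opened and trimmed to the mature snoRNA, which joins nucleolar proteins and guides chemical modification of ribosomal RNA, while the spliced exons leave as the lncRNA. C/D box snoRNAs direct 2'-O-methylation with fibrillarin, and H/ACA box snoRNAs direct pseudouridylation with dyskerin. Many host RNAs begin with a 5' terminal oligopyrimidine tract (TOP), the sequence that ties ribosomal protein mRNAs to growth signals, and many are read by ribosomes and removed by nonsense-mediated decay. Gas5 takes its name from growth arrest, in which it accumulates, and it is known in lymphocytes for restraining growth. Snhg7 is the lncRNA at the centre of the study.

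The genes are spread over 8 chromosomes of GRCm38, the assembly of mm10, with RefSeq coordinates. Gas5 (NCBI gene 14455) spans chr1:161034601-161038539 and Snhg6 (73824) chr1:9942025-9944118. Snhg7 (72091) lies at chr2:26637176-26640244, Snhg8 (69895) at chr3:123507552-123508336 and Snhg5 (72655) at chr9:88521052-88522897. Snhg12 (100039864) and Snhg3 (399101) are neighbours, at chr4:132308678-132311024 and chr4:132351933-132353686. Snhg15 (100041286) lies at chr11:6525591-6528760 and Snhg1 (83673) at chr19:8723487-8726326. The counted transcript was shorter than the span, from 16.8% of the span in Snhg1 to 64.8% in Gas5, except in Snhg8, where reads were counted over the whole span of 785 nucleotides. Gas5 overlaps protein-coding sequence, Zbtb37 among it, and Snhg6 overlaps Mcmdc2. Since no source used here says whether the counting used the strand, reads of these neighbours cannot be told apart in the shared stretches. Over the 8 libraries Zbtb37 had 9.04 to 10.3 RPKM and Mcmdc2 0.553 to 1.23 RPKM.

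RefSeq places 30 snoRNA genes in these spans, 8 each in Gas5 and Snhg1, 4 in Snhg12, 2 each in Snhg3, Snhg5 and Snhg7, and 1 in each of the others. Snoras are H/ACA box RNAs, which typically have the letters ACA a few bases before the 3' end, and Snords are C/D box RNAs, which typically carry TGATGA near the 5' end and CTGA near the 3' end. In the annotated transcripts of Snora44 and Snord22, which are not printed, the search found no ACA and no TGATGA, respectively. Those printed here are from the hosts whose values are described in most detail. They are GENCODE M21 transcripts on GRCm38, written 5' to 3' on the gene's strand, with the boxes in capitals.
Snora17 (in Snhg7, chr2:26639190-26639321, minus strand): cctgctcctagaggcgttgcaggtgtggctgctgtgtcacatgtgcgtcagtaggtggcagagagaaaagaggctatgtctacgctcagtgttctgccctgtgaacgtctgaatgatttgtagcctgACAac
Snora43 (in Snhg7, chr2:26637847-26637985, minus strand): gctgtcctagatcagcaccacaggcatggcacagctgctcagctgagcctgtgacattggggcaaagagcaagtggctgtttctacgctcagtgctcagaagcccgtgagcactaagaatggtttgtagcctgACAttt
Snora16a (in Snhg12, chr4:132309465-132309600, plus strand): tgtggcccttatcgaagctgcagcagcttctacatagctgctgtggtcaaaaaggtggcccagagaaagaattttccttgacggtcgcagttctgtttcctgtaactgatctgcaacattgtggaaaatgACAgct
Snora73a (in Snhg3, chr4:132352775-132352979, minus strand): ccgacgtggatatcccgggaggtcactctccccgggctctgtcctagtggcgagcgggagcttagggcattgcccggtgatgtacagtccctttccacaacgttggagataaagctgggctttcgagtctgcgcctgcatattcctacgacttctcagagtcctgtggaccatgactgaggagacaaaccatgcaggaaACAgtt
Snord47 (in Gas5, chr1:161038082-161038158, plus strand): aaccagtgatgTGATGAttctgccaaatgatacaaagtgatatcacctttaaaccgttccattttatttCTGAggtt
Snord87 (in Snhg6, chr1:9942463-9942549, minus strand): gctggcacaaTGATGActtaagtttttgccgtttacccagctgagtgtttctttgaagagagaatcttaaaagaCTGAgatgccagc

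The start of the host RNA is where a TOP tract would lie. RefSeq start windows (GRCm38.p6, 250 bases before to 50 from the annotated start) were found for 8 of the 10 genes, with 2 starts for Gas5. The windows were searched, on the gene's strand, for a C within 5 bases of the start followed by at least 4 bases that are each C or T, and for TATAA from 40 to 20 bases before the start. Both searches were chosen after the sequences had been seen. The 70 bases shown run from 40 before the start to 30 from it, with both matches in capitals.
Gas5, the second start (chr1:161035126-161035195, plus strand): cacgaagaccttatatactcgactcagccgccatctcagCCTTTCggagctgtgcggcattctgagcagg
Snhg12 (chr4:132308638-132308707, plus strand): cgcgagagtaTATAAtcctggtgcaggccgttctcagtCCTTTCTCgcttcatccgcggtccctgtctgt
Snhg7 (chr2:26640215-26640284, minus strand): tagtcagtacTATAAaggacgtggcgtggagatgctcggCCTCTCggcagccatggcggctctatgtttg
Snhg8 (chr3:123508307-123508376, minus strand): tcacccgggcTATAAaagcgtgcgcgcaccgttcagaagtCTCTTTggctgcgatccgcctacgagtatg
Snhg3 (chr4:132353657-132353726, minus strand): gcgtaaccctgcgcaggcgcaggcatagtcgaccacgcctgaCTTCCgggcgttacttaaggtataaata
Snhg5 (chr9:88522868-88522937, minus strand): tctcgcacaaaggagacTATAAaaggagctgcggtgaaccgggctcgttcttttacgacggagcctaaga
Snhg1 (chr19:8723447-8723516, plus strand): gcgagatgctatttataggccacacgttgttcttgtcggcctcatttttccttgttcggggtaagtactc
Snhg15 (chr11:6528731-6528800, minus strand): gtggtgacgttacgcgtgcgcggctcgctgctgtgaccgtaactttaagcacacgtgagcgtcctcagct

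The pyrimidine run was present in 5 of the 9 windows of these genes, those of Gas5 (the second start), Snhg3, Snhg7, Snhg8 and Snhg12. It was present in 18.3% of all 32851 windows and in 43.2% of the 74 windows of ribosomal protein genes. TATAA was found in 4 of the 9, those of Snhg5, Snhg7, Snhg8 and Snhg12, against 3.52% of all windows and 5.41% of those of ribosomal protein genes. A match is a description of the letters and not a tested site. Of the 5 genes with a run, Snhg7, Snhg3 and Gas5 were higher and Snhg8 and Snhg12 lower in stimulated cells, so the run was found on genes of either direction.

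Depth was recovered from the table, whose low values step in whole reads. The libraries held 15527966 to 25463665 recovered reads on genes, and over the genes tested Pearson's r between replicates was 0.983 to 0.990. The 7 CD4 T cell markers summed to 2050 to 2200 RPKM in unstimulated and 1450 to 1500 RPKM in stimulated libraries, and the 5 activation markers to 149 to 202 and 1170 to 1260 RPKM. Of the markers of other cells, Ms4a1, Cd14, S100a8, S100a9, Hba-a1 and Hba-a2 were listed at 0 in every library. Others of the same lists were not. The myeloid marker Itgam stood at 1.56 to 1.85 RPKM in unstimulated and 0.251 to 0.398 RPKM in stimulated libraries. Csf1r was at 0.0911 to 0.319 RPKM and the erythroid marker Alas2 at 0.365 to 1.72 RPKM. Cd79a stood at 2.87 to 4.73 RPKM and Cd8b1 at 9.40 to 11.7 RPKM beside Cd8a at 0.0581 to 0.160 RPKM. The summed NK cell markers stood at 14.7 to 18.7 RPKM in unstimulated and 4.20 to 6.42 RPKM in stimulated libraries, and the 4 markers of regulatory T cells, which include the activation marker Il2ra, at 14.9 to 19.2 and 140 to 173 RPKM. Foxp3, itself among the 4, stood at 4.48 to 5.08 RPKM in unstimulated and 5.98 to 7.69 RPKM in stimulated libraries. The legends describe CD25-negative cells, and how many regulatory T cells were left is not known here. Their part in the results below was not tested.

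Between 0.0391% and 0.0529% of each library's reads fell on the 10 genes. On the RPKM scale, which allows for transcript length, Snhg1 was the highest in every group, at 226 and 230 RPKM in unstimulated control cells. It made up 43.7% to 47.1% of the summed level of the 10 genes in unstimulated and 35.7% to 37.6% in stimulated libraries. Gas5 came next in every group. Snhg3 was the lowest in every group, at 1.54 to 6.35 RPKM.

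Below Gas5 the order of levels was not the same in unstimulated and stimulated cells. In unstimulated control cells Snhg12 and Snhg8 followed Gas5 with overlapping libraries, and Snhg6 and Snhg15 stood next to each other, also with overlapping libraries. In stimulated control cells Snhg6 and Snhg15 overlapped in the places below Gas5, and Snhg12 and Snhg5 overlapped below them. Snhg4 moved from the rank of 9 in both unstimulated groups to 7 in stimulated control and 8 in stimulated Cd cells.

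**Figure D1:**
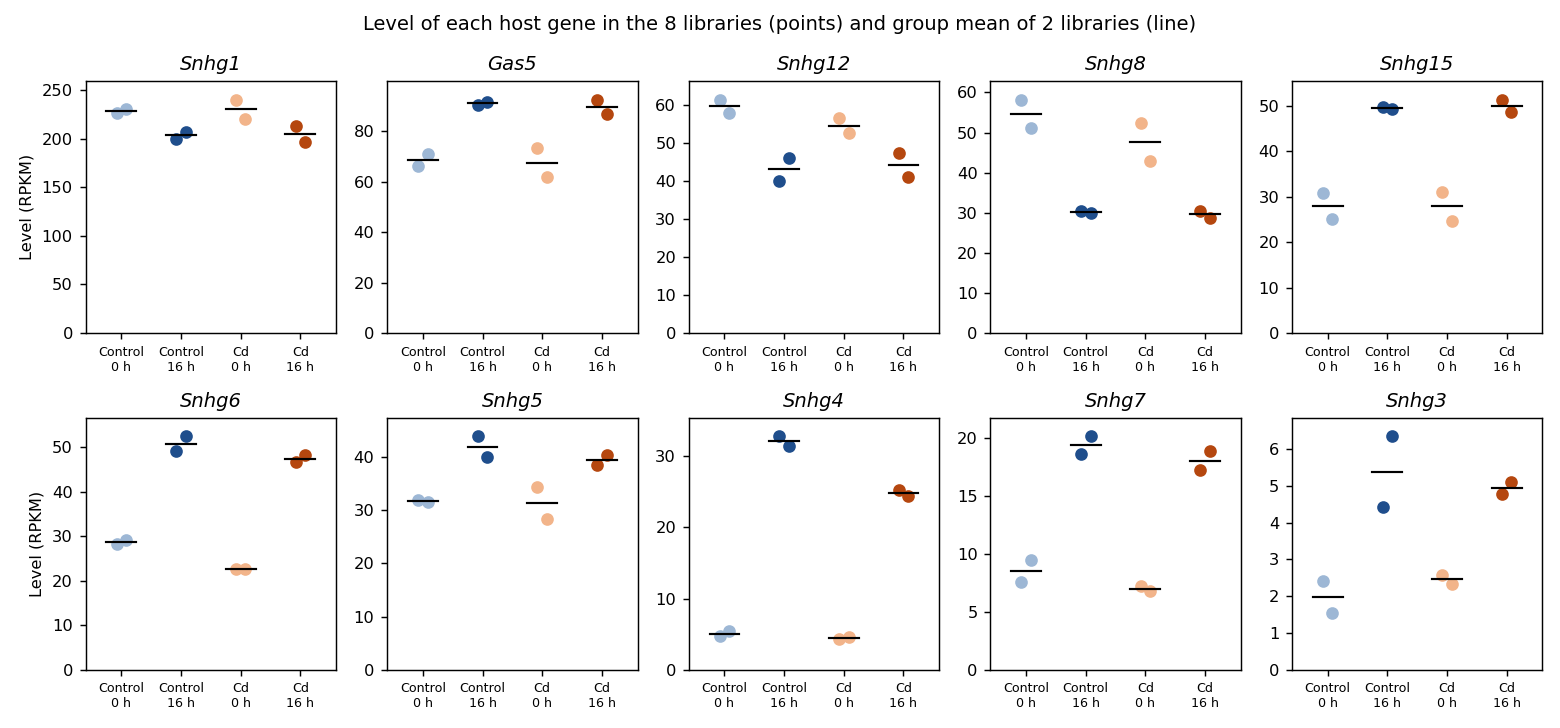
Level of each of the 10 host genes on the vertical axis (RPKM, starting at 0) in the 4 groups on the horizontal axis, with 1 point per library and a line at the mean of the 2 libraries. Snhg4 stands at 4.29 to 5.38 RPKM in the 4 unstimulated and 24.4 to 32.8 RPKM in the 4 stimulated libraries, while Snhg8 stands at 42.9 to 58.2 and 28.7 to 30.5 RPKM.

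The first comparison asks which host RNAs change when CD4+ T cells of control offspring are stimulated. Snhg4, Snhg3 and Snhg7 rose by more than 2-fold, Snhg15, Snhg6, Gas5 and Snhg5 rose by less, and Snhg8 and Snhg12 fell. Of the 10 genes 3 passed the study's fold and p-value thresholds for stimulation (over 2-fold, adjusted p below 0.01), all of them higher. The study also required a minimum read level, which was not applied here. Snhg4 and Snhg7 are in the study's list of changed lncRNAs, while Snhg3, with 11 to 57 reads a library, is not. Of all genes tested, 11.5% passed the fold and p-value thresholds as higher and 7.17% as lower. At an adjusted p under 0.05 without a fold threshold, 7 of the 10 were higher and 2 lower, beside 36.9% and 27.8% of all genes. At that threshold most genes of these cells were called. The median log2 fold change was 0.61 over the 10 genes and 0.07 over all genes tested.

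Snhg4 (100503380, chr18:35553410-35558316), a host of the H/ACA snoRNA Snora74a, had the largest response of the 10. It stood at 4.78 and 5.38 RPKM in unstimulated and 32.8 and 31.4 RPKM in stimulated control cells. In Cd offspring it went from 4.29 and 4.65 RPKM to 25.2 and 24.4 RPKM. The stimulated libraries were far above all unstimulated ones, and those of Cd offspring were lower than those of control offspring. Stimulation changed it by 2.64 on the log2 scale in control offspring (SE 0.08, limma adjusted p = 4.25e-07) and 2.45 in Cd offspring (0.08, 5.84e-07).

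Snhg7, which hosts Snora17 and Snora43, was at 7.57 and 9.43 RPKM in unstimulated and 18.6 and 20.1 RPKM in stimulated control cells. In Cd offspring it was at 7.22 and 6.76 RPKM without and 17.2 and 18.8 RPKM with stimulation. No stimulated library overlapped an unstimulated one in either exposure group. On the log2 scale the change was 1.18 in control offspring (SE 0.11, limma adjusted p = 5.66e-05) and 1.35 in Cd offspring (0.11, 2.92e-05). The response of Cd offspring minus that of control offspring was 0.17 on the log2 scale (SE 0.16, limma adjusted p = 0.715). Its 95% interval of -0.20 to 0.54 includes 0, and the difference was not called.

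Snhg3, the host of the H/ACA snoRNAs Snora73a and Snora73b, rested on few reads. These were 19 and 11 in unstimulated and 30 and 54 in stimulated control libraries, or 2.42, 1.54, 4.42 and 6.35 RPKM. In Cd offspring the reads were 22 and 21, then 46 and 57, and the level 2.59, 2.34, 4.79 and 5.12 RPKM. The groups did not overlap, yet the stimulated control libraries lay well apart from each other. Snhg3 changed by 1.41 on the log2 scale in control (SE 0.23, limma adjusted p = 0.00119) and 0.98 in Cd offspring (0.23, 0.00742), just under 2-fold in the latter. The difference of -0.43 had a 95% interval of -1.21 to 0.35.

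Snhg6 and Snhg15 rose by a similar amount. Snhg6, which hosts the C/D snoRNA Snord87, went from 28.3 and 29.2 RPKM to 49.2 and 52.4 RPKM in control and from 22.6 and 22.6 RPKM to 46.6 and 48.2 RPKM in Cd offspring. Its log2 fold change was 0.82 in control (SE 0.05, limma adjusted p = 7.37e-06) and 1.06 in Cd offspring (0.05, 2.35e-06). The fold change passed 2-fold in Cd offspring, though at 0.92 not under quantile normalization, and did not pass it in control offspring, and the unstimulated level was the lower one in Cd offspring. The difference between the responses was 0.25, with a 95% interval of 0.07 to 0.42 and an adjusted p of 0.315 from limma, and it was not called. Counting alone gave a standard error of 0.09 for either response, larger than the 0.05 of the fit. The interval of the difference is therefore likely too narrow.

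Snhg15 stood at 30.8 and 25.1 RPKM without and 49.7 and 49.4 RPKM with stimulation in control offspring. In Cd offspring the values were 31.1 and 24.7, then 51.4 and 48.7 RPKM. The unstimulated libraries of either exposure thus differed more from each other than the stimulated ones did. Its log2 fold change was 0.83 (SE 0.12, limma adjusted p = 0.000684) and 0.85 (0.12, 0.000616) in control and Cd offspring.

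Gas5, the host of 8 snoRNA genes and a growth arrest transcript, was at 66.2 and 70.9 RPKM in unstimulated and 90.4 and 91.5 RPKM in stimulated control cells. In Cd offspring it was at 73.3 and 61.6 RPKM and at 92.4 and 86.6 RPKM. It was thus higher in every stimulated library than in any unstimulated library. Its change on the log2 scale was 0.41 in both, with a standard error of 0.08 and adjusted p-values of 0.00368 in control and 0.00348 in Cd offspring from limma. With 5995 reads in the unstimulated and 8133 in the stimulated control libraries, counting error was a small part of its spread. The standard error that counting alone would give is 0.02.

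Snhg5 behaved much like Gas5. It stood at 31.9 and 31.6 RPKM without and 43.9 and 40 RPKM with stimulation in control offspring, and at 34.4 and 28.4, then 38.6 and 40.4 RPKM in Cd offspring. The log2 fold change was 0.40 (SE 0.09, limma adjusted p = 0.00616) and 0.34 (0.09, 0.0135). Without the Cd stimulated replicate 7 the latter was 0.30 with an adjusted p of 0.0718 from limma. Under quantile normalization neither passed, at 0.23 in control (limma adjusted p = 0.0546) and 0.15 in Cd offspring (0.165).

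Snhg8, Snhg12 and Snhg1 had lower values in stimulated cells, and of these Snhg8 changed most. It was at 58.2 and 51.2 RPKM in unstimulated and 30.5 and 29.9 RPKM in stimulated control cells, and at 52.3 and 42.9, then 30.5 and 28.7 RPKM in Cd offspring. Its log2 fold change was -0.85 (SE 0.10, limma adjusted p = 2e-04) in control and -0.68 (0.10, 0.000695) in Cd offspring. Neither reached 2-fold.

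Snhg12, with 4 snoRNA genes the richest host after Gas5 and Snhg1, was at 61.5 and 58.1 RPKM without and 40.2 and 46.1 RPKM with stimulation in control offspring. The values of Cd offspring were 56.6 and 52.7, then 47.5 and 41.0 RPKM. The log2 fold change was -0.47 (SE 0.09, limma adjusted p = 0.00264) and -0.31 (0.09, 0.0198). The call in Cd offspring was lost without the Cd stimulated replicate 7, at -0.20 with an adjusted p of 0.129 from limma, and without the Cd unstimulated replicate 6, at -0.25 with 0.0912.

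Snhg1 changed least. It stood at 226 and 230 RPKM in unstimulated and 200 and 207 RPKM in stimulated control cells, and at 240 and 220, then 213 and 196 RPKM in Cd offspring. Although the stimulated libraries were below the unstimulated ones in either exposure group, the log2 fold change was only -0.16 in control (SE 0.06, limma adjusted p = 0.0527) and -0.17 in Cd offspring (0.06, 0.0474). These fall on either side of the threshold by a small margin, and the 19 alternatives gave adjusted p-values of 0.00756 to 0.209 in control and 0.0122 to 0.276 in Cd offspring. In Cd offspring the call was lost without either control library of each kind, without the Cd unstimulated replicate 6, at -0.11, and without the Cd stimulated replicate 7, also at -0.11, and in control offspring a call was made without either Cd unstimulated library, with an adjusted p of 0.0332.

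In Cd offspring 3 of the 10 genes, Snhg4, Snhg7 and Snhg6, passed the same thresholds, all higher, where 11.4% of all genes tested were called higher and 7.24% lower. At an adjusted p under 0.05, 7 were higher and 3 lower, beside 36.5% and 29.4% of all genes. The median log2 fold change was 0.63 over the 10 genes and 0.05 over all genes. Each gene had the same sign as in control offspring, a comparison between libraries that are not shared. The share of all genes with the same sign in both was not counted, so nothing is read from this. Leaving out the Cd unstimulated replicate 6 moved the median to 0.78 and leaving out replicate 7 moved it to 0.49. Replicate 7 of unstimulated Cd cells lay below replicate 6 for 8 of the 10 genes, above it for Snhg4 and at the same 22.6 RPKM for Snhg6. The same was not counted over all genes. The median of the 10 genes, as a deviation from their mean over the 8 libraries on the log2 scale, was -0.18 in replicate 6 and -0.42 in replicate 7, against -0.26 and -0.23 in the unstimulated control libraries.

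**Figure D2:**
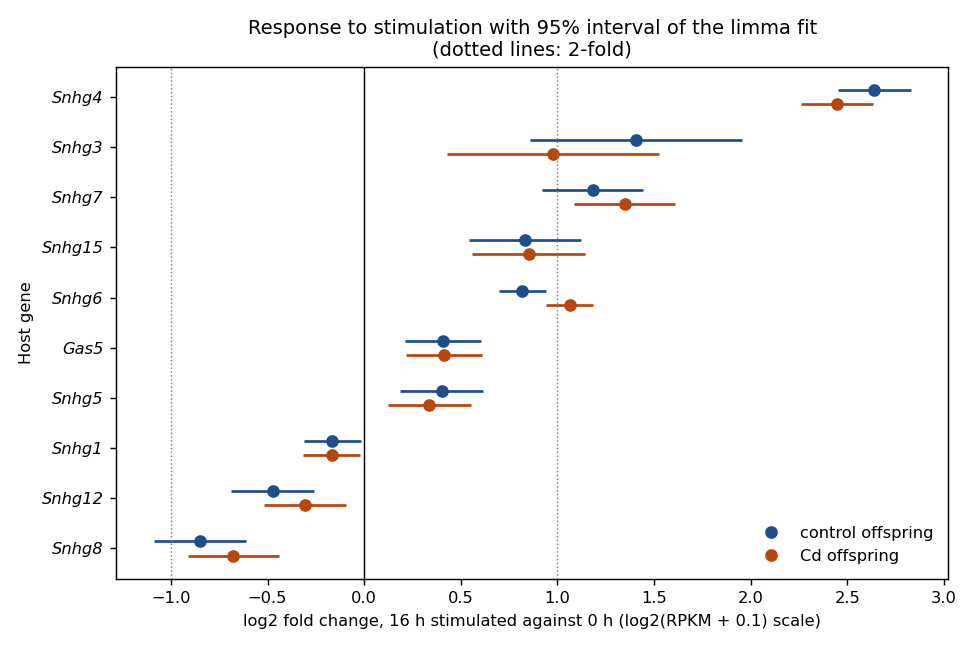
log2 fold change of each host gene between stimulated and unstimulated cells (horizontal axis, log2(RPKM + 0.1) scale) in control and Cd offspring, with the 95% interval of the limma fit as a bar. Snhg4, Snhg3, Snhg7, Snhg15, Snhg6, Gas5 and Snhg5 lie right of 0 and Snhg1, Snhg12 and Snhg8 left of it in both.

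The third comparison sets unstimulated cells of Cd offspring against those of control offspring. Snhg6 was lower in Cd offspring and was the 1 gene of the 10 called, at an adjusted p under 0.05. Of all genes tested 0.762% were called lower and 0.135% higher. The 96 genes called lower became 13 without the unstimulated control replicate 6 and 12 with no trend. The 10 genes had a median log2 fold change of -0.08 against 0.01 over all genes, with 8 of them below 0, as were 48.4% of all genes. Without the unstimulated Cd replicate 7 the median was 0.01, with 5 genes on either side of 0, and without replicate 6 it was -0.17, with 9 below 0. The direction of the group as a whole thus rests on 1 library. Both Cd libraries lay below both control libraries for Snhg4, Snhg6, Snhg7 and Snhg12, and for the other genes the groups overlapped. How many of all genes lay apart in this way was not counted, so nothing is read from this number.

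Snhg6 was at 28.3 and 29.2 RPKM in control and at 22.6 RPKM in either Cd library, a log2 fold change of -0.34 (SE 0.05, limma adjusted p = 0.0369). The values rest on 207 and 194 reads in control and 179 and 189 in Cd offspring. The standard error of a ratio of that many reads is 0.10 from counting alone, which is larger than the 0.05 of the fit. The 95% counting interval of the summed reads was -0.55 to -0.14. With limma voom, which weights by read number, the adjusted p was 0.205, and it was 0.0597 to 0.15 with 1 library left out, so the call did not hold in any of those fits, while the log2 fold change stayed between -0.37 and -0.32.

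Snhg6 was counted over 407 nucleotides. The 627 genes counted over more than 300 and up to 600 nucleotides had a median log2 fold change of -0.15 in this comparison, and 38 of them were called lower. Snhg3, Snhg1 and Snhg15, of 437, 476 and 592 nucleotides, fall in the same range and had log2 fold changes of 0.33, 0.01 and -0.01, each with a 95% interval that includes 0. Its length's part in the value of Snhg6 was not tested.

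Snhg7 was at 7.57 and 9.43 RPKM in control and 7.22 and 6.76 RPKM in Cd offspring, a log2 fold change of -0.27 (95% interval -0.53 to -0.01, limma adjusted p = 0.346). It was -0.11 when replicate 7 of unstimulated control cells, the higher of that pair, was left out. Snhg8 had -0.20 (-0.44 to 0.03), Snhg4 -0.18 (-0.37 to 0.01) and Snhg12 -0.13 (-0.34 to 0.08), and none of them was called.

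For Gas5 the difference was within the spread between libraries, at -0.03 with an interval of -0.23 to 0.17, as it was for Snhg5 at -0.02 (-0.24 to 0.19), Snhg15 and Snhg1. For Snhg1, whose 3724 control and 4369 Cd reads make it well measured, the interval was -0.14 to 0.16. Snhg3 had the widest interval, -0.22 to 0.88.

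In stimulated cells none of the 10 was called for Cd, nor was any of all genes tested (0%). At an unadjusted p under 0.05, limma counted 1 of the 10 and 414 of all genes, and voom counted 1 of the 10 and 456 of all genes. After adjustment voom also called 0. The 1 gene was Snhg4, at 32.8 and 31.4 RPKM in control and 25.2 and 24.4 RPKM in Cd offspring. Both Cd libraries lay below both control libraries, as in unstimulated cells. The log2 fold change was -0.37 (95% interval -0.56 to -0.18, limma adjusted p = 0.885), and 1291 control and 1355 Cd reads gave a counting interval of -0.48 to -0.26. The median was -0.06 over the 10 genes and -0.01 over all genes. The log2 fold change of Snhg7 was -0.10 (-0.37 to 0.16).

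The difference in response to stimulation was called for 0 of the 10 genes, where 0.357% of all genes were called. By limma 1 of the 10, Snhg6, had an unadjusted p under 0.05. By voom 0 of the 10 did, and 0 were called after adjustment. The 45 calls over all genes fell to 3 without the stimulated control replicate 6, to 2 without the stimulated Cd replicate 7 and to 4 with no trend, so the share itself rests on single libraries. The median difference was 0.01 over the 10 genes and -0.01 over all genes. The 95% intervals reached 0.54 for Snhg7 and 0.51 for Snhg8 and ran down to -1.21 for Snhg3, and the data do not exclude differences within those intervals.

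**Figure D3:**
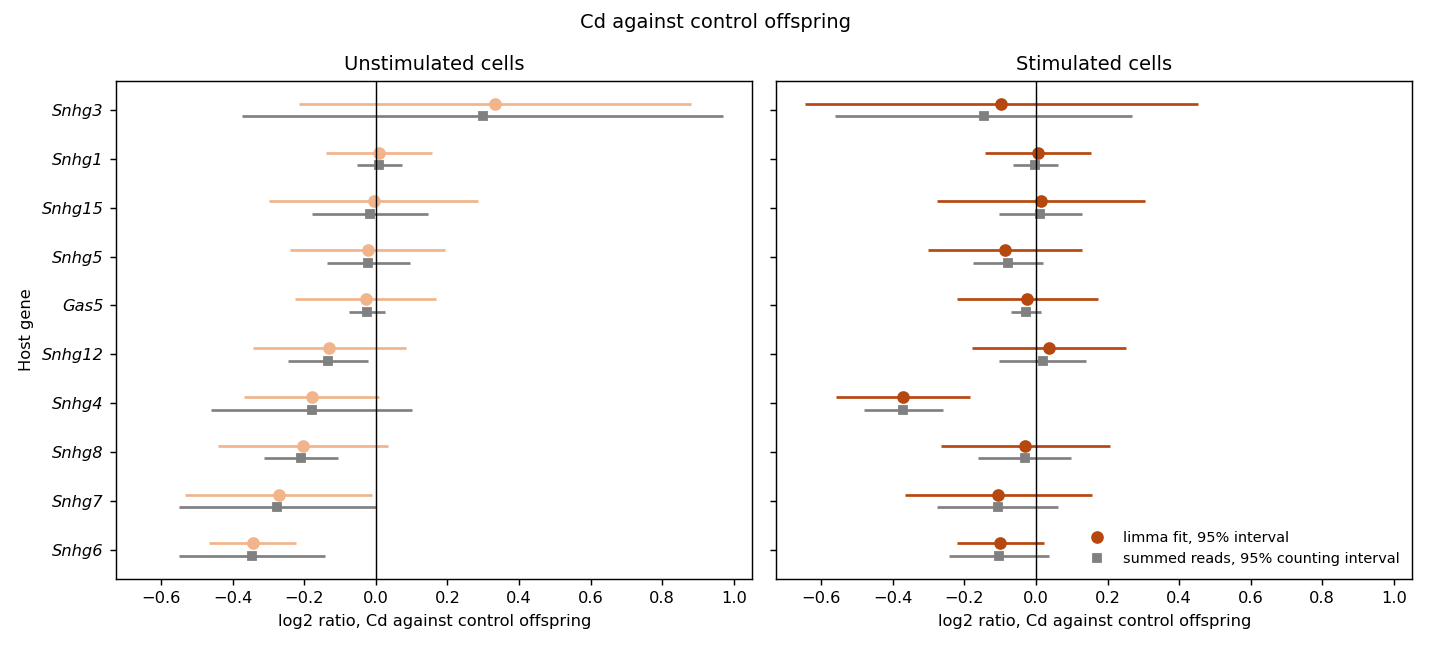
log2 ratio of Cd to control offspring (horizontal axis) for each host gene in unstimulated and stimulated cells, with the limma fit and its 95% interval in colour and the ratio of summed reads with its 95% counting interval in grey. In unstimulated cells Snhg6 lies at -0.34, where the grey bar is longer than the coloured one, and in stimulated cells Snhg4 lies at -0.37.

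Reads were also counted on some of the snoRNA genes themselves. Of the 30 in these spans, 13 have a row in the table and the others were not analysed here. The libraries came from an mRNA kit, and a read in such a row may come from the snoRNA or from unspliced or alternatively spliced host RNA, which cannot be told apart here. Tested were 11 rows from 7 hosts, counted over 56 to 205 nucleotides with 1 to 164 reads a library, so most of these values are coarse. In control offspring 7 of the 11 were higher in stimulated cells at an adjusted p under 0.05 and none was lower. In Cd offspring 6 were higher and none lower. Of all genes tested, 36.9% were higher and 27.8% lower in control and 36.5% and 29.4% in Cd offspring at that threshold.

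In Snhg7, both snoRNA rows rose with the host. Snora17 was at 5.48 and 6.97 RPKM in unstimulated and 21.4 and 21.8 RPKM in stimulated control cells, and at 5.46 and 7.38, then 21.4 and 21.7 RPKM in Cd offspring. Its log2 fold change was 1.79 in control and 1.75 in Cd offspring (adjusted p = 3.49e-05 and 4.06e-05 from limma). Snora43 went from 3 and 5 reads to 14 and 34 in control libraries. The 95% counting intervals in control offspring were 1.2 to 2.41 for Snora17 and 1.48 to 3.64 for Snora43, beside a fitted interval of 0.92 to 1.44 for the host Snhg7, and whether they change more than the host was not tested.

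Snora73a in Snhg3 rose from 7.87 and 7.48 RPKM to 22.6 and 20.6 RPKM in control and from 10.0 and 4.04 RPKM to 21.1 and 15.7 RPKM in Cd offspring, with log2 fold changes of 1.48 and 1.5 (adjusted p = 0.00823 and 0.00769 from limma). Its neighbour Snora73b was listed at 0 in every library. The 2 are near copies that differ at 7 of 205 positions, so reads of either may align to both and the value of each is uncertain. Snora24 in Snhg8 was also listed at 0, and its interval lies wholly inside the stretch counted for Snhg8. Snora74a in Snhg4 rested on 1 to 31 reads and had a log2 fold change of 2.37 in control offspring (limma adjusted p = 0.036). The microRNA gene Mir1949, in the same span, had one of 3 from 4 and 12 reads in unstimulated and 45 and 73 in stimulated libraries.

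Among the C/D rows, Snord87 in Snhg6 rose with its host, by a log2 fold change of 1.05 in control and 1.49 in Cd offspring (adjusted p = 0.00704 and 0.00123 from limma) from 5 to 23 reads a library. In unstimulated cells it was at 7.51 and 6.63 RPKM in control and 4.18 and 3.29 RPKM in Cd offspring. The Cd libraries were the lower ones, as for Snhg6, with a log2 fold change of -0.91 and an adjusted p of 0.188. Snord47 in Gas5 varied between libraries of a group, from 11.9 to 35.2 RPKM in unstimulated Cd cells, and was not called. In control offspring Snord47 went from 20.5 and 17.9 to 60.4 and 33.2 RPKM, a log2 fold change of 1.22 (limma adjusted p = 0.0538). The stimulated Cd libraries, at 24.5 and 20.5 RPKM, were below both stimulated control ones. Snord22 in Snhg1 had the most reads, 111 to 164 a library, and a log2 fold change of -0.28 in control offspring that was not called (limma adjusted p = 0.0764).

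Of the 4 snoRNA rows in Snhg12, Snora16a and Snora44 changed in the direction opposite to the host in control offspring. While the host fell, Snora16a went from 14.3 and 12.2 RPKM to 24.1 and 25.7 RPKM in control offspring, a log2 fold change of 0.91 (SE 0.17, limma adjusted p = 0.00227), and from 18.2 and 12.2 to 19.1 and 18.2 RPKM in Cd offspring, where it was not called. Snora44 rose by 0.77 in control offspring (limma adjusted p = 0.0345), Snora61 by 0.85 in Cd offspring (limma adjusted p = 0.0197), and Snord99 was not called in either. The 95% counting interval of Snora16a in control offspring, 0.47 to 1.35, does not include the host's -0.47. In GENCODE M21 all 4 snoRNAs of Snhg12 lie within exons of some of its spliced transcripts, whereas Snord47, Snord87, Snora73b and Snora24 lie in introns. Snora73a and Snord22 are partly exonic, with 159 of 205 and 59 of 126 bases in exons, and the snoRNAs of Snhg4 and Snhg7 were not placed.

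In stimulated cells all 11 snoRNA rows had a log2 fold change below 0 for Cd against control offspring, none of them called, where 54.1% of all genes were below 0. Summed over the 11 rows there were 1063 reads in control and 1188 in the more deeply sequenced Cd libraries, and relative to the library totals both Cd libraries were below both control libraries. The log2 ratio of the summed reads was -0.28, with a 95% counting interval of -0.40 to -0.16 that covers counting error only. In unstimulated cells the ratio was -0.15 (-0.30 to -0.0008), from 679 control and 712 Cd reads.

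**Figure D4:**
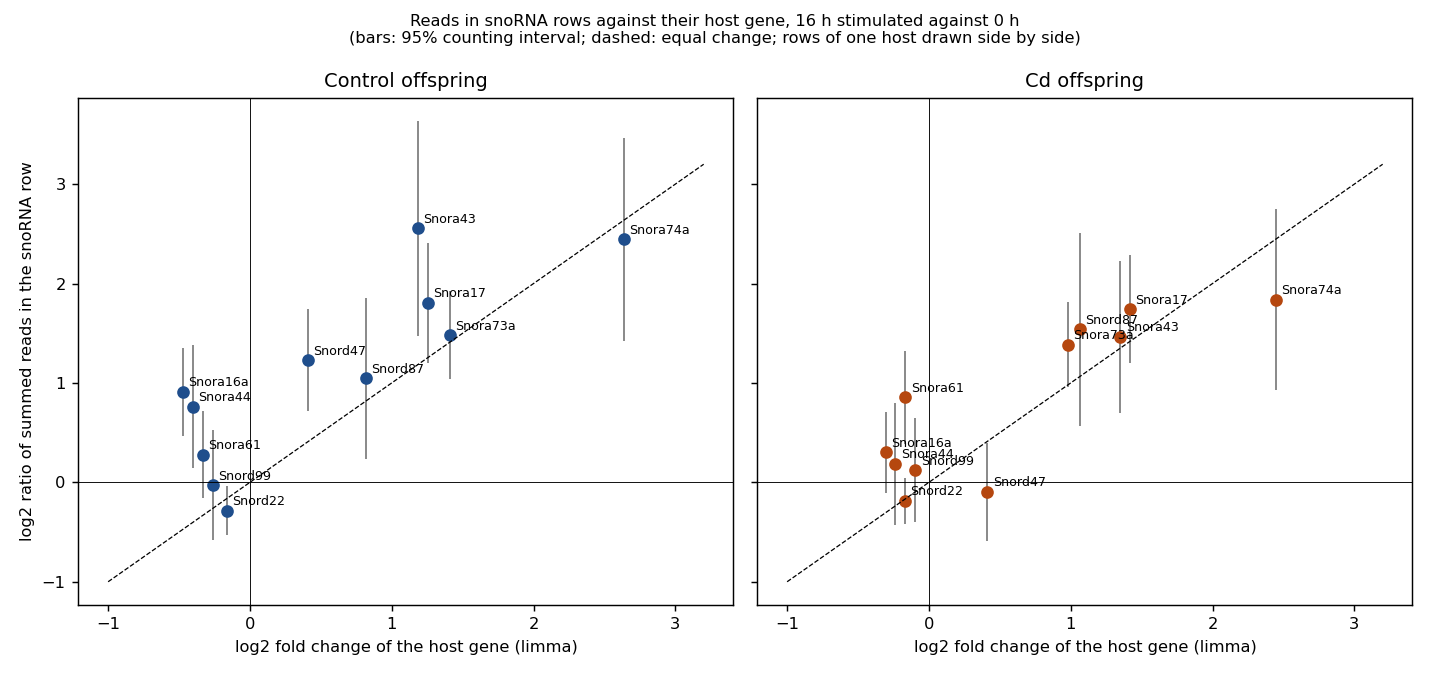
log2 ratio of summed reads in 11 snoRNA rows (vertical axis, bars are 95% counting intervals) against the limma log2 fold change of the host gene (horizontal axis) for stimulated against unstimulated cells in control and Cd offspring, with rows of the same host drawn side by side. In control offspring Snora43 and Snora17 lie above the dashed line of equal change and Snora16a and Snora44 lie above 0 while their host Snhg12 lies below it.

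Other genes of the same machinery were taken as lists, whose counts at an adjusted p under 0.05 stand beside 36.9% of all genes higher and 27.8% lower in control and 36.5% and 29.4% in Cd offspring. Of 11 further snoRNA host lncRNAs 8 were tested, and 5 rose in each exposure group (adjusted p below 0.05), with none lower and medians of 0.98 and 0.91. Of these, 3 passed 2-fold in either group, Snhg16, Snhg20 and Dancr. Snhg20 rose most in this list, from 3.80 and 3.27 RPKM to 14.6 and 12.3 RPKM in control offspring, a log2 fold change of 1.89. Dancr followed with 1.80. Zfas1, the most abundant of the list, rose by 0.64, and Epb41l4aos, next in level, had -0.07 and was not called. Snhg11 and Snhg18 were listed at 0, and Snhg14 was below the level tested. None of the 8 was called for Cd in unstimulated cells, where their median was -0.16.

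The proteins that bind and process snoRNAs rose together with stimulation. Of 18 such genes, 17 were higher in control and 18 in Cd offspring at an adjusted p under 0.05, 14 and 13 of them by more than 2-fold, and the medians were 1.42 and 1.52. Naf1, an assembly factor of H/ACA particles, had a log2 fold change of 2.57 in control offspring, and Nhp2, a core protein of these particles, one of 1.995. Nop58 and Nop56, core proteins of C/D particles and themselves snoRNA hosts, had 1.85 and 1.01. In unstimulated cells of Cd offspring 1 of the 18 was called, Fbl, the methyltransferase of C/D particles, at -0.48 (limma adjusted p = 0.0185), and the median was 0.00.

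For protein-coding snoRNA hosts, TOP mRNAs and decay factors the shares called in control offspring were near those of all genes, and nothing is read from them about these lists. Of 20 coding hosts, 8 were higher and 5 lower in control offspring at an adjusted p under 0.05, with a median of 0.00, and 15 were higher and 4 lower in Cd offspring, with a median of 0.44. Rps3, among the most abundant of these 20, had a log2 fold change of -0.38 in control offspring, while Rcc1 and Dkc1 had 2.07 and 1.95. Of 16 other TOP mRNAs 7 were higher and 4 lower in control and 10 higher and 0 lower in Cd offspring, with medians of 0.01 and 0.22. Among them Npm1 rose by 1.21, Tpt1 fell by 1.03 on the log2 scale, and the most abundant, Eef1a1 and Eef2, had -0.12 and -0.05 and were not called. Of 10 factors of nonsense-mediated decay, 4 were higher and 3 lower in control and 3 higher and 4 lower in Cd offspring, none by 2-fold, and the most abundant, Smg1 and Upf1, had -0.38 and 0.20 in control offspring.

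Of the 79 cytosolic ribosomal protein genes, the best known TOP mRNAs, 27 were called lower and none higher in unstimulated Cd cells. Of all genes 0.762% were called lower and 0.135% higher. With no trend the fit called 12 of all genes lower, so the 27 calls depend on that setting. The median log2 fold change was -0.47 over the 79 genes and -0.08 over the 10 host lncRNAs. Among the 79, Rpl23a had -1.08 and Rps10 -1.08, and the most abundant, Rps27rt and Rplp1, had -0.30 and -0.47 and were not called. Of the coding hosts 3 were called lower, Rpl23a, Rpl3 and Rpl7a, and of the other TOP mRNAs 2, Tpt1 among them. With stimulation the ribosomal protein genes had medians of -0.22 in control and 0.38 in Cd offspring. These comparisons share the unstimulated libraries, and the lists were set beside each other without a test between them.

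**Figure D5:**
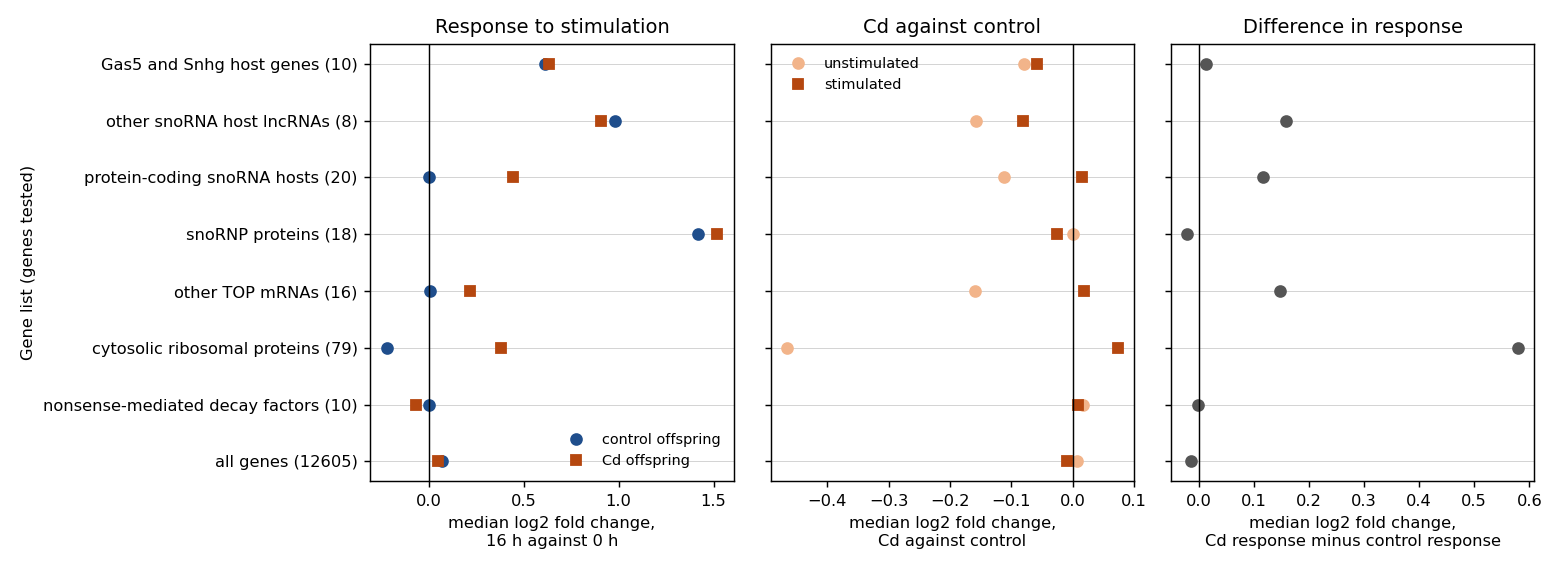
Median log2 fold change (horizontal axis) of the 10 Gas5 and Snhg host genes, of 6 other gene lists with the number of genes tested in parentheses, and of all genes tested, for the response to stimulation, Cd against control offspring, and the difference between the responses. The host lncRNAs lie at 0.61 and 0.63 for stimulation and at -0.08 for Cd in unstimulated cells, where the ribosomal protein genes lie at -0.47.

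The genes whose pattern was most like that of Gas5 and Snhg7 over the 8 libraries were named from the 8672 other genes with a mean of at least 5 RPKM, by Pearson's r of log2(RPKM + 0.1), as a description. For Gas5 these were Mtfmt, Lias, Mrpl34, Dus1l and Dusp12, with r from 0.990 to 0.995. For Snhg7 they included Timm23, Tnpo2, Rdh13 and Pigf, with r from 0.996 to 0.998. The libraries share 2 levels of stimulation, so a high r was common. It was over 0.9 for 2363 of the genes with Gas5 and for 2863 with Snhg7.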

How the data were processed

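RNA of sorted splenic CD4+ T cells was made into libraries with an mRNA kit (KAPA mRNA HyperPrep) and sequenced on 8 libraries, 2 for each of 4 groups. Per the labels and the study's methods, the authors used Subread for alignment (mm10) and featureCounts for counting over RefSeq transcripts. Versions, strand use and the treatment of reads with several alignments are not given in the sources used here. The deposited values are log2 of RPKM plus 1, as the table's own steps show, with 0.0001 added. They were turned back into RPKM, and whole reads were recovered for 17792 of 17794 genes above 0 in at least 2 libraries. The library totals behind the RPKM values, inferred from the steps, were 15542732 to 25486791 reads.

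limma 3.58.1 (R 4.3.3) was fitted to log2(RPKM + 0.1) of 12605 genes with a mean of at least 0.5 RPKM, with 4 group means, an intensity trend and Benjamini-Hochberg adjustment. Fold changes on this scale understate those of low genes. Stimulation was called at an adjusted p under 0.01 and over 2-fold, and the other contrasts at an adjusted p under 0.05. Intervals are 95%, and counting intervals cover counting error only. For stimulation, counting alone gave a larger standard error than the fit in Snhg3, Snhg4, Snhg6 and Snhg7. The fitted standard errors of these genes are therefore likely too small. The script was tested on simulated data. All 10 host genes were named, with annotated genes inside their spans, the 2 most abundant and the 2 most changed called genes of the lists, and the 5 genes most correlated with Gas5 and with Snhg7; other genes were named after their values were seen. Some genes that this rule or the lists select are not reported here. The genes and lists were chosen with earlier results of these data known. Sequences came from RefSeq (GRCm38.p6) and GENCODE M21. Alternatives were other pseudocounts, filters and scalings, no trend, a replicate block, only the 4 libraries compared, voom on recovered reads, and each library left out.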

Additional observations from a re-analysis of the deposited data

How the results depend on the processing

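No host gene changed direction with stimulation in any of the 19 alternatives, and Snhg4, Snhg3, Snhg7, Snhg6, Snhg15, Gas5 and Snhg8 stayed at an adjusted p under 0.05 in control and Cd offspring in each. Snhg1, Snhg5 and Snhg12 crossed that threshold in some of them. With the 2-fold threshold the count in Cd offspring was 2 in place of 3 under quantile normalization, where Snhg6 was 0.92, and 4 without the unstimulated Cd replicate 6, where Snhg15 passed at 1.02. Under quantile normalization the 10 genes' median was 0.49 in control and 0.50 in Cd offspring. With 1 library left out the median in Cd offspring ran from 0.49 to 0.78 and that of the difference in response from -0.094 to 0.16, the ends set by the 2 unstimulated Cd libraries. For Cd in unstimulated cells the median ran from -0.17 to 0.01, its sign set by the same libraries. The cause was not tested.

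The call of Snhg6 for Cd in unstimulated cells was not stable. Of the 10 genes, 0 were called with no filter, with no trend, with only the 4 libraries compared and with voom. Over all genes these fits called 65, 14, 52 and 211. The call of Snhg6 was kept with other pseudocounts, a filter of 1 RPKM and both scalings. With 1 library left out its log2 fold change ran from -0.37 to -0.32. The same-numbered libraries did not deviate together (correlations of -0.04 to 0.06 between the groups compared), so the number was not taken as a pairing. With the replicate block by number 0 of the 10 were called (adjusted p of 0.0592 from limma for Snhg6), beside 76 of all genes. With a block by the first part of the title 3 of the 10 were called for stimulation in control and 3 in Cd offspring. Of all genes 2326 and 2318 were called there.

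Differences near 0 changed sign, none of them called. For Cd in unstimulated cells Snhg1 was -0.0076 under median-of-ratios scaling, and Snhg5 and Snhg15 were 0.0023 and 0.0094 under quantile normalization. For Cd in stimulated cells Snhg1 was -0.024 under quantile normalization. For the difference in response Gas5 was -0.014 under quantile normalization and Snhg1 0.025 under median-of-ratios scaling. With 1 library left out, the ranges for Cd in unstimulated cells were -0.15 to 0.10 for Gas5, -0.054 to 0.073 for Snhg1, -0.16 to 0.12 for Snhg5 and -0.17 to 0.16 for Snhg15. In stimulated cells they were -0.070 to 0.023 for Gas5, -0.056 to 0.066 for Snhg1, -0.35 to 0.16 for Snhg3, -0.074 to 0.015 for Snhg8, -0.069 to 0.14 for Snhg12 and -0.024 to 0.053 for Snhg15. For the difference in response they were -0.12 to 0.13 for Gas5, -0.068 to 0.059 for Snhg1, -0.20 to 0.074 for Snhg5 and -0.15 to 0.19 for Snhg15. Depth limits Snhg3, at 11 to 57 reads a library, and most of the snoRNA rows.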
